A study of Mus musculus with 8 samples.

Results

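The 8 genes described here, of 18194 genes on the array, are used as markers and regulators of sprouting vessels: Apln, Adm, Aplnr, Ramp2, Unc5b, Robo4, Esm1 and Igfbp3. They were chosen by name and were measured by every probe set annotated to 1 of these symbols alone, 12 of 45101 probe sets. Aplnr, Unc5b, Adm and Igfbp3 had 2 probe sets each and the other genes 1. Values came from 8 arrays, each hybridised with labelled RNA (6 ug of total RNA as input) from the brain microvessels of a mouse at postnatal day 1, captured as fragments with attached pericytes on beads that bind the endothelial protein PECAM. In the 4 mutant brains the D849V substitution had been knocked into Pdgfrb, which keeps the PDGF receptor beta active, and the 4 control brains were wild type. The background of every mouse was mixed 129S/J. The labels place the active receptor in pericytes, the cells wrapped around small vessels, whereas the 8 genes are best known from the endothelial lining. The comparison asks whether sprouting genes of the vessel differed between brains with and without the mutation, whichever of their cells carry it. Whether the mutants had 1 or both copies of the allele is not given in the sources used here.

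New vessels grow as sprouts led by a tip cell, which follows gradients of VEGF and guidance cues while stalk cells behind it divide and form a lumen. Tip cells are known to make secreted factors such as apelin and endocan, whose receptors or effects lie partly in their neighbours, and guidance receptors shared with growing axons steer or restrain the sprout. The newborn mouse brain is still being vascularised, so sprouting is part of the tissue that was sampled.

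The regulatory sequence upstream of the 3 genes with the largest positive differences is shown first, from the promoter table of RefSeq on build GRCm38.p6, as the 250 bases before the gene start, 5′ to 3′ on the strand of the gene. Capitals mark GCGTG, a form of the core bound by hypoxia-inducible factors, and CCGGAA, a core of ETS factors of endothelial cells, on either strand.
Adm, chr7:110627407-110627656, plus strand: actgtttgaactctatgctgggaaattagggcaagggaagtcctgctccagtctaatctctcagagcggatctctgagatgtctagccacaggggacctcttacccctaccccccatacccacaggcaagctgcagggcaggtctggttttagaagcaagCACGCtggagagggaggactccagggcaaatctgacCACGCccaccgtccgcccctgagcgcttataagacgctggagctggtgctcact
Unc5b, chr10:60831582-60831831, minus strand: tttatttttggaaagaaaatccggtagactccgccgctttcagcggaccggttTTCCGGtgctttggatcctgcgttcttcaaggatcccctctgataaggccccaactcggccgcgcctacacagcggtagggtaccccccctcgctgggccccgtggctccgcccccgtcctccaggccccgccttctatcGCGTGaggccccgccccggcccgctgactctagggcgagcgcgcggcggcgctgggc
Apln, chrX:48034854-48035103, minus strand: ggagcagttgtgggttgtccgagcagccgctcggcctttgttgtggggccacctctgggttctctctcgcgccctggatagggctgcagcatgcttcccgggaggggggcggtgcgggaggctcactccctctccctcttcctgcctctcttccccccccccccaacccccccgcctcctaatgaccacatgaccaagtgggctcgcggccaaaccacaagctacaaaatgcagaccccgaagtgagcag

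The Adm window held GCGTG at 2 places, starting 90 and 54 bases before the gene start, both on the opposite strand. The Unc5b window held it once, 57 bases before the start, together with CCGGAA 197 bases before it, and the Apln window held neither. The other hypoxia form, ACGTG, and the interferon response core GAAANNGAA were searched on both strands as well and matched in none of the 6 member promoters that the table held (those of Apln, Adm, Unc5b, Robo4, Esm1 and Igfbp3). GCGTG also lay in the windows of Esm1 (1 match) and Igfbp3 (2 matches), and CCGGAA in that of Igfbp3. Over all 32851 promoters of that length, 28.2% held GCGTG, 16.6% ACGTG, 12% CCGGAA and 7.13% GAAANNGAA. Such a match is a string of letters and not evidence of binding.

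None of the 8 genes passed the test between mutant and control microvessels. The largest positive difference was that of Adm, 1.33-fold, and the largest negative one that of Aplnr, 0.825-fold. With limma and Benjamini-Hochberg adjustment over 11446 genes, 0 of the 8 had an adjusted p under 0.05, against 4.58% of all tested genes, and 2 (Aplnr and Adm) had an unadjusted p under 0.05, against 20.6% of all tested genes. The same 2 genes had no overlap between the 4 mutant and 4 control values, Adm higher in the mutants (4.07% of all genes) and Aplnr lower (10.4% of all genes). The fitted differences were positive for 4 genes and negative for 4, where 69.1% of all tested genes were negative, with a median of 0.03 on the log2 scale, whereas the median of all tested genes was -0.11. Tested as single probe sets over 22310, 0 of the 12 passed, against 2.63% of all probe sets, and 3 had an unadjusted p under 0.05, against 16.3%. Among the alternative fits, array weights gave 4 passing genes (Adm, Unc5b, Apln and Aplnr) and trended, robust moderation gave 1 (Aplnr). Of all 11446 tested genes, 3158 passed with array weights and 582 with trended, robust moderation, against 524 in the main fit. In bulk fragments, fewer cells of a type and less RNA per cell cannot be told apart.

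**Figure D1:**
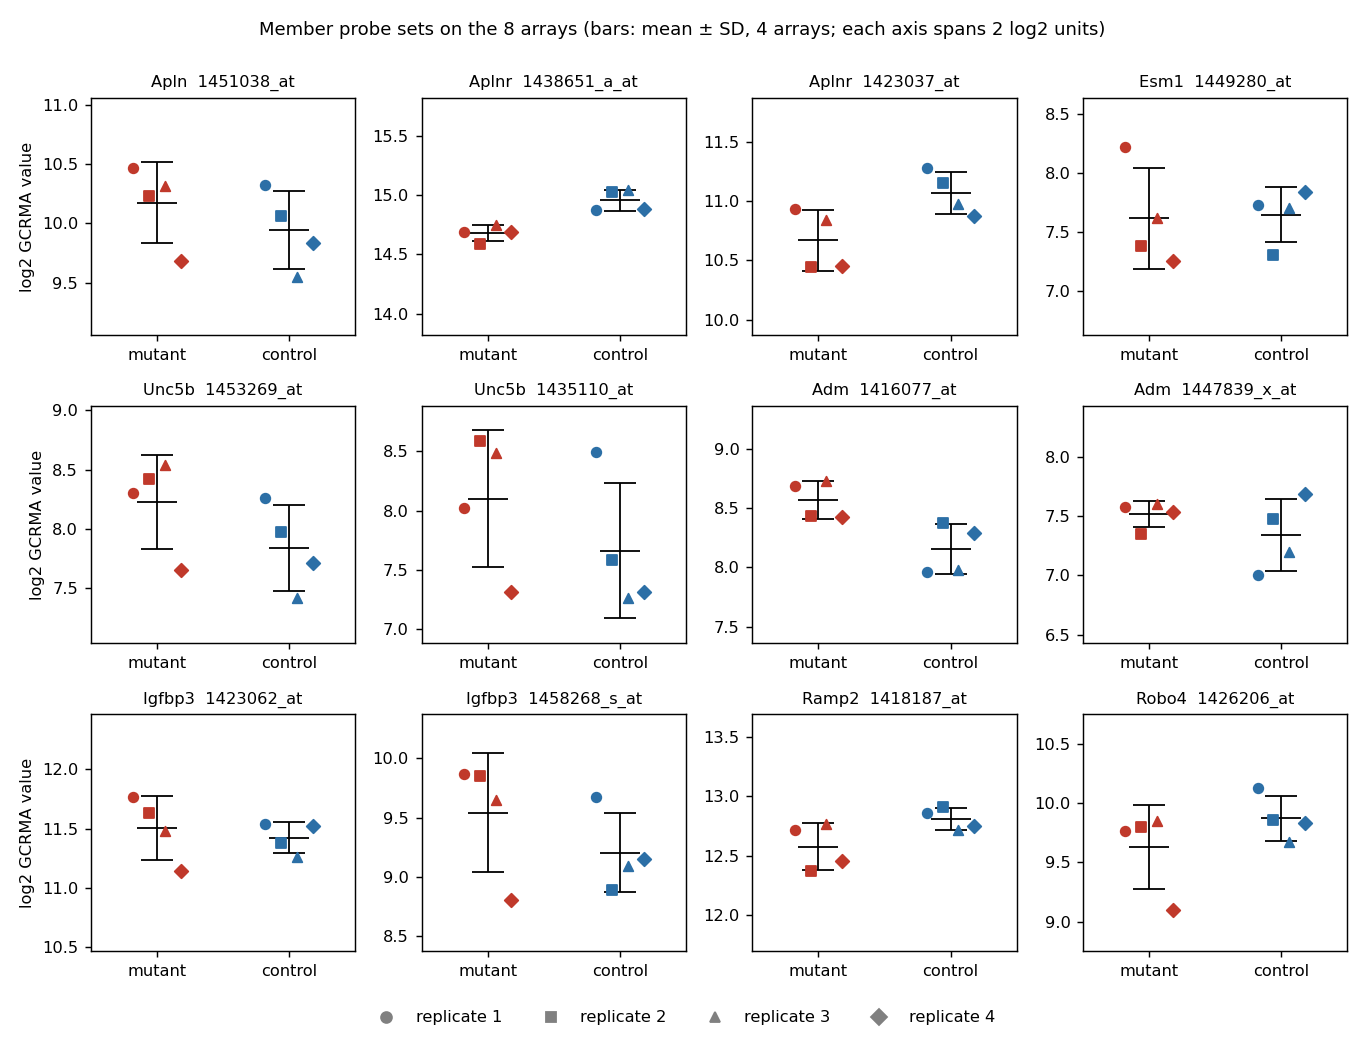
Log2 GCRMA values of the 12 member probe sets on the 4 mutant arrays (red, left) and the 4 control arrays (blue, right), with bars for the mean ± SD and marker shapes for the replicate number. Only Adm on its brighter probe set and Aplnr on its brighter probe set have groups that do not overlap, and mutant array 4 is the lowest mutant for Apln, Esm1, Unc5b, Igfbp3, Robo4 and the brighter probe set of Adm.

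The ligands were the peptides apelin and adrenomedullin. Apelin (Apln), released by tip cells, had log2 values of 10.47, 10.23, 10.31 and 9.69 on mutant arrays 1 to 4, against 10.32, 10.06, 9.55 and 9.84 on control arrays 1 to 4. The groups overlapped over most of their range, because mutant array 4 lay below 3 of the control arrays and control array 1 above 3 of the mutant arrays. The difference was 0.23 (SE 0.212, 95% interval -0.25 to 0.72, limma adjusted p = 0.558), so that changes between 0.841-fold and 1.65-fold were not resolved. Leaving out 1 array moved it to between 0.10 (without control array 3) and 0.40 (without mutant array 4). Apln lies on the X chromosome, and with the level of Y-linked genes as a covariate its difference was 0.28 (limma adjusted p = 0.526).

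Adrenomedullin (Adm), a vasodilator peptide that also keeps lymphatic and blood vessels intact, read 8.68, 8.44, 8.73 and 8.42 on the mutant arrays, against 7.96, 8.37, 7.98 and 8.29 on the control arrays. Every mutant array was above every control array, though mutant array 4 and control array 2 were only narrowly apart. The difference on that probe set was 0.42 (SE 0.131, 95% interval 0.11 to 0.72, limma unadjusted p = 0.0126 and adjusted p = 0.127), which is 0.52 above the median of all genes. Its dimmer probe set read 7.58, 7.35, 7.60 and 7.54 in the mutants, against 6.999, 7.47, 7.19 and 7.69 in the controls. There the groups overlapped, since control array 4 was the highest of all arrays and control array 2 lay above mutant array 2. The difference was 0.18 (SE 0.155, limma adjusted p = 0.594 over all probe sets). On the dimmer probe set the value depended on single arrays, with 0.07 without control array 1 and 0.30 without control array 4.

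For the receptors of these peptides, the 8 genes held Aplnr and the accessory protein Ramp2, and neither passed. Aplnr, the G protein-coupled receptor of apelin, read 14.69, 14.59, 14.75 and 14.69 on its brighter probe set in mutants, against 14.88, 15.03, 15.04 and 14.89 in controls. All mutant values lay under all control values, and the spread within each group was small (SD 0.068 in mutants and 0.088 in controls, 4 arrays each). The difference was -0.28 (SE 0.082, 95% interval -0.47 to -0.09, limma unadjusted p = 0.00889 and adjusted p = 0.105), or -0.17 relative to the median of all genes. The dimmer probe set gave 10.94, 10.45, 10.84 and 10.45 in mutants, against 11.28, 11.15, 10.98 and 10.88 in controls. Here mutant array 1 was above control array 4, and the difference was -0.40 (SE 0.151, limma unadjusted p = 0.0279 and adjusted p = 0.245 over all probe sets). Neither probe set of Aplnr passed, and both differences were negative, as were those of 69.1% of all tested genes.

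Ramp2 encodes the accessory protein that turns the calcitonin receptor-like receptor into an adrenomedullin receptor. Its values were 12.71, 12.37, 12.77 and 12.46 in mutants, against 12.86, 12.91, 12.72 and 12.75 in controls. Mutant arrays 1, 2 and 4 were below all controls, array 1 only narrowly, while mutant array 3 lay within their range. The difference was -0.23 (SE 0.113, 95% interval -0.49 to 0.03, limma adjusted p = 0.287).

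**Figure D2:**
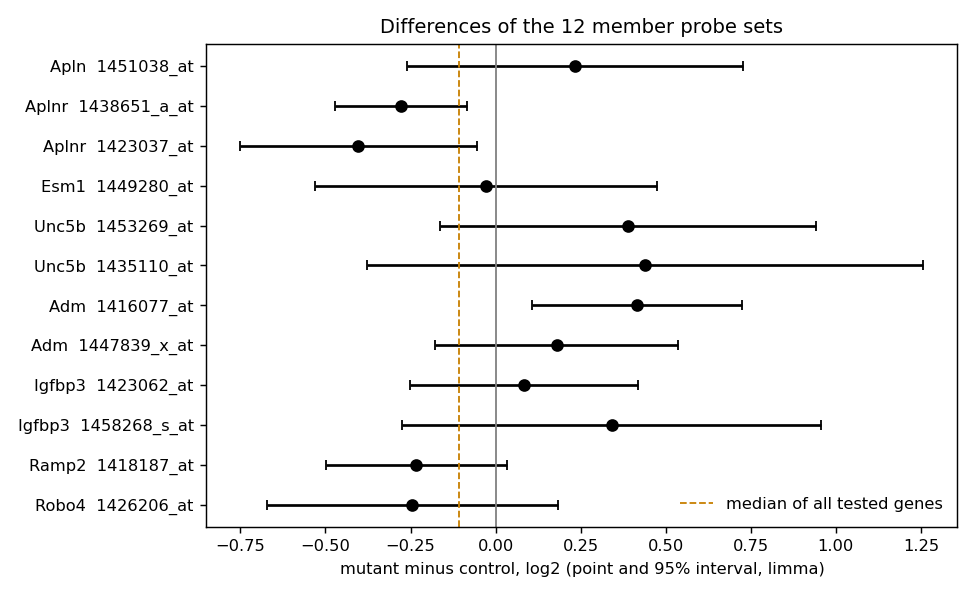
Difference of mutant minus control arrays for each member probe set on the log2 scale, with its 95% interval from limma, beside 0 (grey line) and the median of all tested genes (dashed line, -0.11). Intervals that leave out 0 belong to both probe sets of Aplnr and the brighter one of Adm, and none of the 12 passed after adjustment.

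Unc5b and Robo4 are guidance receptors of endothelial cells: Unc5b binds netrins and FLRT proteins and restrains filopodia of tip cells, and Robo4, which can bind UNC5B, is found in quiescent and stalk endothelium. The brighter probe set of Unc5b gave 8.31, 8.42, 8.54 and 7.66 in mutants, against 8.26, 7.98, 7.41 and 7.72 in controls. Mutant arrays 1 to 3 were above every control array, and mutant array 4 was below 3 of them. The difference was 0.39 (SE 0.237, 95% interval -0.15 to 0.93, limma adjusted p = 0.386), and the dimmer probe set differed by 0.44 (SE 0.356, limma adjusted p = 0.568 over all probe sets). Single arrays moved the difference of the brighter probe set both ways: it was 0.58 without mutant array 4 (limma adjusted p = 0.147), 0.25 without control array 3 (0.62) and 0.29 without mutant array 3 (0.600).

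Robo4 read 9.77, 9.80, 9.85 and 9.10 in mutants, against 10.13, 9.85, 9.67 and 9.83 in controls. Mutant array 4 stood apart from all other arrays, and the remaining mutant values lay within the range of the controls. The difference was -0.24 (SE 0.183, limma adjusted p = 0.475), and without that array it was -0.07 (SE 0.119, limma adjusted p = 0.756), so the negative difference of Robo4 rested largely on 1 array.

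Esm1 and Igfbp3 encode secreted proteins. Esm1, or endocan, is a proteoglycan induced by VEGF and is a widely used tip cell marker. Its values were 8.22, 7.39, 7.62 and 7.25 in mutants, against 7.73, 7.31, 7.70 and 7.84 in controls. The mutants held both the highest and the lowest value of the 8 arrays, and the difference was -0.03 (SE 0.216, 95% interval -0.52 to 0.47, limma adjusted p = 0.956). On the linear scale that interval runs from 0.696-fold to 1.38-fold, so larger changes of Esm1 lie outside it. The sign of so small a value has no weight, and it was positive without mutant array 4 (0.09).

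Igfbp3, which binds insulin-like growth factors in the tissue fluid, gave 11.77, 11.63, 11.48 and 11.15 on its brighter probe set in mutants, against 11.54, 11.38, 11.26 and 11.52 in controls. The groups overlapped, with mutant array 4 the lowest of all 8. The difference was 0.08 (SE 0.143, 95% interval -0.25 to 0.41, limma adjusted p = 0.776), and the dimmer probe set differed by 0.34 (SE 0.268, limma adjusted p = 0.556 over all probe sets). The brighter probe set exceeded the dimmer one by 1.96 ± 0.26 in mutants and 2.22 ± 0.27 in controls (log2, SD over 4 arrays each), a gap that varied between arrays by more than the fitted difference of the gene.

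Array 4 of the mutants was the lowest of its group for 6 of the 8 genes, all but Ramp2 and Aplnr, and array 3 of the controls for 5 of 8. The same arrays were low in Pecam1, the surface protein to which the capture beads bind: Pecam1 read 11.09, 10.96, 10.99 and 9.09 in mutants, against 11.27, 9.56, 9.29 and 9.53 in controls. Pecam1 was thus high on mutant arrays 1 to 3 and on control array 1 and low on the other 4 arrays, and Apln and the brighter probe set of Unc5b were high on the same 4 arrays. Pecam1 itself did not pass (difference 0.62, SE 0.567, limma adjusted p = 0.561), nor did it without mutant array 4 (1.10, limma adjusted p = 0.209). All 12 endothelial markers were bright enough to test. Of these, 0 passed and 11 had a negative difference, against 4.58% and 69.1% of all tested genes. Their mean level ran from 11.43 (mutant array 4) to 11.95 on the mutant arrays and from 11.79 to 12.13 on the control arrays. The array pattern of Pecam1 was not that of the whole list. Like Pecam1, the markers Esam, Tie1, Cdh5 and Tek were highest of the controls on control array 1. Emcn (11.64) and Ptprb (11.81) were lowest of the controls there, and the remaining markers lay between. The part of the endothelial content of the fragments in the values of the 8 genes was not tested beyond the following fit.

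With each array centred on the mean of the 12 endothelial markers, 0 of the 8 genes passed, against 333 of all 11446 tested genes. In limma 3 of the 8 had an unadjusted p under 0.05. The share of all genes on this scale is not given here, so that count has no background. The 3 genes were Unc5b at 0.53 (SE 0.175, adjusted p = 0.257), Adm at 0.55 (SE 0.188, adjusted p = 0.277) and Apln at 0.37 (SE 0.160, adjusted p = 0.527). On this scale Aplnr differed by -0.14 (adjusted p = 0.95), Ramp2 by -0.09 (0.966) and Robo4 by -0.11 (0.952), while Esm1, whose sign turned, differed by 0.11 (0.967) and Igfbp3 by 0.22 (0.848). The centring takes the difference of the endothelial list itself (-0.14) from the difference of every gene. The turned sign of Esm1 and the larger positive differences follow from that shift alone. It likewise moved the median of all tested genes to 0.03, against -0.11 without it.

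**Figure D3:**
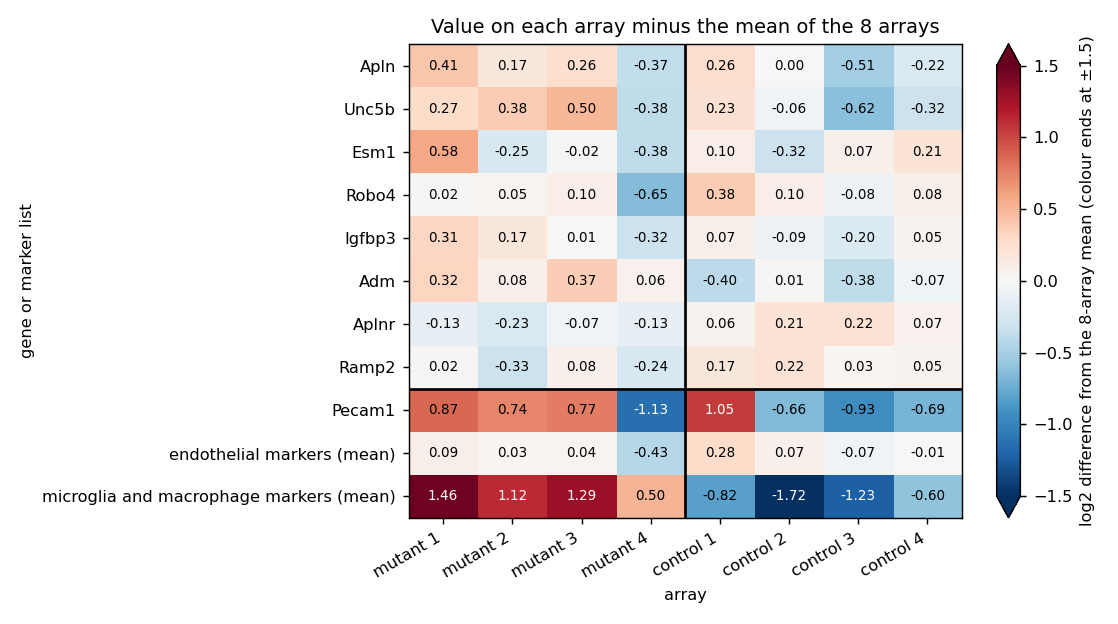
Value of each member gene (brighter probe set), of Pecam1 and of the mean of 2 marker lists on each array, minus its own mean over the 8 arrays, in log2 units, with mutant arrays left of the line and control arrays right of it. Apln, Unc5b and Pecam1 are above their means on mutant arrays 1 to 3 and control array 1, and mutant array 4 is low for most rows above the microglial markers.

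Among markers of other cells, those of microglia and macrophages rose as a group. Of the 10 microglia and macrophage markers, 9 were tested and 8 rose, against 2.66% of all tested genes, while Trem2 lay under the filter. The list means ran from 9.27 to 10.23 on the mutant arrays and from 7.05 to 8.17 on the control arrays. Of 9 pericyte markers only Higd1b passed, and it rose (difference 0.85), against 2.66% of all tested genes. In this list 4 genes had an unadjusted p under 0.05 in limma, against 20.6% of all tested genes. Higd1b, Kcnj8 (0.48) and Vtn (0.41) were higher in mutants and Notch3 (-0.70) was lower. Pericyte list means ran from 9.67 to 10.10 in mutants and from 9.74 to 10.25 in controls. No smooth muscle marker (4 tested), fibroblast marker (6), neuron marker (5) or astrocyte and radial glia marker (5) passed. Macrophages can make adrenomedullin, and the part of the microglial and macrophage signal in the Adm values was not tested. The targeted gene itself does not check the labels, since 1 substitution need not alter transcript level. Even so, the brighter probe set of Pdgfrb was lower in mutants and passed (difference -1.01, limma adjusted p = 0.00232 over all probe sets). It gave 11.84 ± 0.21 on mutant arrays and 12.85 ± 0.05 on control arrays (SD over 4 arrays each). The other probe set did not pass, at 9.24 ± 0.41 and 9.15 ± 0.40 (difference 0.09, limma adjusted p = 0.887). Why the 2 probe sets of Pdgfrb differ was not tested.

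Among the partners of apelin and adrenomedullin, 1 of 4 tested genes fell and none rose, against 1.92% and 2.66% of all tested genes. That gene was Calcrl, the receptor chain that pairs with Ramp2 to bind adrenomedullin. It read 10.73, 10.66, 10.54 and 10.63 in mutants, against 10.92, 11.04, 11.04 and 10.96 in controls, without overlap. Its difference of -0.35 (SE 0.080, limma adjusted p = 0.0476) lost the call when any 1 of the 8 arrays was left out (limma adjusted p from 0.0532 to 0.156, differences from -0.38 to -0.32). Its size depended on the processing as well, at -0.14 when its probe sets were averaged (limma adjusted p = 0.254) and -0.21 with arrays centred on the endothelial markers (0.902). Its brightest probe set alone reached the filter, so the average also drew on probe sets that did not. Of the other partners, Ackr3, a scavenging chemokine receptor that can also take up adrenomedullin, averaged 9.94 ± 0.20 on mutant arrays and 10.67 ± 0.40 on control arrays (SD over 4 arrays each, difference -0.73, limma adjusted p = 0.0909) and is named after its values were seen. Without control array 1 Ackr3 passed, at -0.91 (limma adjusted p = 0.0167), and it did not pass with any other single array left out. Ramp1 and Pam did not pass, and Apela, Ramp3, Adm2, Calcb and Calcr lay under the filter, and Calca had no probe set of its own symbol alone.

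Of the 10 guidance partners tested, 1 fell and none rose, against 1.92% and 2.66% of all tested genes. Flrt2, a membrane protein that binds UNC5 receptors, read 9.60, 10.24, 9.82 and 10.14 in mutants, against 10.71, 10.54, 10.74 and 10.67 in controls. The mutants were all lower, with a log2 difference of -0.71 (SE 0.147, limma adjusted p = 0.0314). Its other probe sets above the filter differed by -0.55 and -0.70, again without overlap (limma adjusted p = 0.0875 and 0.0813 over all probe sets). The call was lost without mutant array 3 or without any 1 of the control arrays (limma adjusted p up to 0.112). Netrin 1 (Ntn1), a ligand of UNC5 receptors, differed by 0.26 (limma adjusted p = 0.622) and Slit2, a ligand of ROBO receptors, by -0.59 (limma adjusted p = 0.435).

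Among 20 other tip cell and sprouting genes, 2 fell and none rose, against 1.92% and 2.66% of all tested genes. The list had 10 positive and 10 negative differences, where 69.1% of all tested genes were negative. Both that fell are receptors of the VEGF system: Nrp2, a neuropilin co-receptor, at 10.33 ± 0.07 in mutants against 10.70 ± 0.08 in controls, and Flt4, the receptor of lymphatic growth factors, at 9.44 ± 0.19 in mutants against 9.91 ± 0.05 in controls (SD over 4 arrays each). Their differences were -0.37 (SE 0.081, limma adjusted p = 0.0387) and -0.47 (SE 0.107, limma adjusted p = 0.0467). Tested singly over all probe sets, a dimmer probe set of Nrp2 passed (-0.59, limma adjusted p = 0.0392) and the brighter one did not (limma adjusted p = 0.0645). Nrp2 lost the call without any 1 of the 8 arrays (adjusted p up to 0.137) and Flt4 without any array other than mutant array 3 (adjusted p up to 0.146). With the mean of probe sets Flt4 differed by -0.26 (limma adjusted p = 0.0884), and with endothelial centring Nrp2 differed by -0.23 (0.888). Of the probe sets of Flt4, too, only the brightest reached the filter. The differences of the remaining genes ran from -0.52 (Trp53i11) to 0.59 (Mcam), and none passed. Of the 20 genes, 5 had an unadjusted p under 0.05 in limma, against 20.6% of all tested genes. Beside Nrp2 and Flt4 these were the actin-bundling protein Fscn1 at -0.29 (adjusted p = 0.133), the semaphorin receptor Plxnd1 at -0.26 (0.177) and the VEGF receptor Flt1 at -0.32 (0.196). Fscn1 and Plxnd1 were lower in mutants without overlap between groups, as were 10.4% of all tested genes.

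In the insulin-like growth factor axis, to which Igfbp3 belongs, 0 of 9 tested genes passed and 1 had an unadjusted p under 0.05 in limma. The shares of all tested genes were 4.58% and 20.6%. Named as its 2 brightest genes were Igfbp7, at 14.30 ± 0.07 in mutants and 14.18 ± 0.20 in controls, and the growth factor Igf2, at 13.90 ± 0.24 in mutants and 13.40 ± 0.24 in controls (SD over 4 arrays each). The difference of Igf2 was 0.50 (SE 0.157, limma adjusted p = 0.123). Among 14 hypoxia targets, a group to which Adm is often counted, 0 passed, against 4.58% of all tested genes. In limma 7 had an unadjusted p under 0.05, against 20.6%. Of the differences 9 were positive and 5 negative, where 69.1% of all tested genes were negative. The smallest adjusted p was that of Ero1a (-0.42, limma adjusted p = 0.054), lower in mutants without overlap and named after its values were seen. The glycolytic enzyme Aldoa read 12.22 ± 0.03 in mutants against 11.92 ± 0.08 in controls (limma adjusted p = 0.0767), and the glucose transporter Slc2a1 14.47 ± 0.06 in mutants against 14.75 ± 0.12 in controls (limma adjusted p = 0.127), in each case without overlap (SD over 4 arrays each). Aldoa passed in 4 of 21 alternatives (no filter, the mean of probe sets, array weights, and trended, robust moderation) and Slc2a1 in the last 2 of these.

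**Figure D4:**
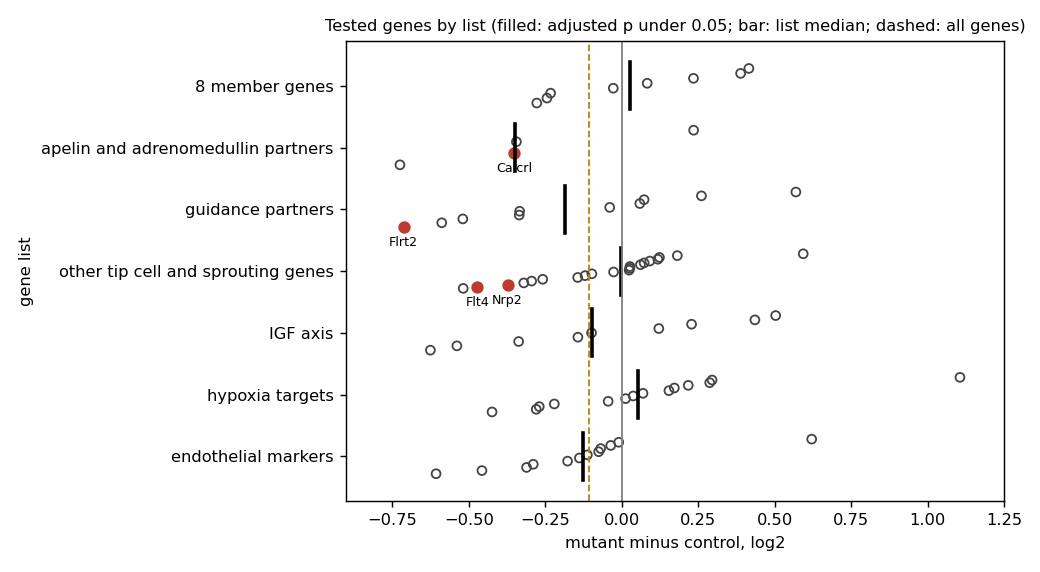
Mutant minus control difference on the log2 scale for each tested gene, by list, with filled points for genes that passed in limma at an adjusted p under 0.05, black bars for list medians and a dashed line for the median of all tested genes. The 8 member genes spread from -0.28 to 0.42 with none filled, and the filled genes, Calcrl, Flrt2, Flt4 and Nrp2, all lie to the left of 0.

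The genes most like the members across the 8 arrays were found from the root mean square difference of gene-centred log2 values over 11446 genes. For Adm, the member with the largest positive difference, they were Pim1 (0.054), Cyba (0.096) and Kirrel3 (0.098), and for Aplnr, the member with the largest negative one, Selenop (0.044), Cyth1 (0.045) and Cyb5a (0.052). None of these 6 passed, with limma adjusted p from 0.0675 (Cyba) to 0.214. They were picked for values like those of a member on the same arrays, so this outcome is not a separate observation.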

How the data were processed

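The table deposited by the authors holds 1 log2 value per probe set for each of 8 single-channel Affymetrix arrays. Per the submitters' processing notes it was made with GCRMA, of unstated version and settings, and the log2 scale was inferred from a range of 2.18 to 16.49. GCRMA corrects background from probe sequence, normalizes by quantiles and summarises each probe set. Of 45101 probe sets, 34958 had 1 symbol in the platform annotation, and these covered 18194 genes. Each gene was represented by its brightest probe set. Genes above a log2 value of 4 on at least 4 arrays were tested (11446), mutant against control arrays, with limma 3.58.1 in R 4.3.3 (two-sided, Benjamini-Hochberg, threshold 0.05). A second fit took every probe set singly (22310 tested). All 12 member probe sets were above the filter on all 8 arrays. Precision is limited by 4 arrays per group, and litter, sex and scan day are unknown, so p-values measure the spread between these brains only. The main fit did not pair the arrays by replicate number. Correlations of same-numbered deviations from the group means were -0.08, -0.48, -0.20 and 0.30. These are too few to show whether the numbers mark a pairing.

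The members and gene lists were chosen with earlier results of these data known. The text names all 8 members, from each pathway list the genes that passed or else the 2 brightest, and the 3 genes most like the members with the largest positive and negative difference. Other names were chosen after their values were seen. Alternatives covered the filter, scaling, probe set choice, covariates, weights, moderation, the threshold and each array left out. The fit was tested on simulated data.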

Additional observations from a re-analysis of the deposited data

Results flagged for a closer look

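Robo4 on mutant array 4, at 9.10, was far from the other mutant arrays, at 9.77 to 9.85. It was the only one of 24 groups of 4 member values whose extreme value passed Dixon's 95% critical value (its gap was 0.894 of the range), and chance alone marks about 5% of such groups.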

How the results depend on the processing

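None of the 8 genes passed in the alternatives run, except with array weights (4 genes) and with trended, robust moderation (1 gene, Aplnr at -0.28, limma adjusted p = 0.0259). With weights, Adm (0.50), Unc5b (0.74), Apln (0.44) and Aplnr (-0.21) passed, but mutant array 3 then had a weight of 6.60 against 0.357 to 0.688 for the other mutant arrays. Leaving out any 1 array gave 0 calls among the 8 genes and among the 12 probe sets. With the replicate number as a block 0 genes passed, the smallest adjusted p being 0.269 (Aplnr). Esm1 turned positive after a second quantile normalization (0.040), with endothelial centring (0.11), and without mutant array 2 (0.049) or 4 (0.093) or control array 1 (0.00023) or 4 (0.037). Igfbp3 turned to -0.0051 without mutant array 1. With 1 array left out, Esm1 ran from -0.23 to 0.093 and Igfbp3 from -0.0051 to 0.20. The mean difference of the 8 genes was 0.04, against 0.014 with arrays centred on their median and 0.18 with endothelial centring. With 1 array left out, the dimmer probe sets of Unc5b and Igfbp3 ran from 0.28 to 0.72 and from 0.23 to 0.59. Calcrl, Flrt2, Nrp2 and Flt4 lost the call in 15 of 20, 11 of 21, 14 of 21 and 16 of 21 alternatives and kept their direction in all, with differences from -0.43 to -0.14, -0.81 to -0.57, -0.42 to -0.23 and -0.55 to -0.26. Of these, Calcrl was smallest with the mean of probe sets (-0.14), as was Flt4 (-0.26), and Flrt2 (-0.57) and Nrp2 (-0.23) with endothelial centring. For Calcrl and Flt4 that mean drew on probe sets that did not reach the filter. Igf2 passed with array weights (0.62). Among all tested genes, 524 changed (304 higher, 220 lower), against 333 with endothelial centring (9 lower) and 259 with the block. The count was 3158 with weights, 582 with trended, robust moderation and 246 at a threshold of 0.01. It was 264, 322 and 306 without mutant array 3, control array 3 and control array 4. Differences inside the 95% intervals given are not resolved by 4 arrays per group.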
